A study of Mus musculus with 5 samples.

Results

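Collagen genes encode the chains of the triple-helical proteins that hold the extracellular matrix together. All autosomal protein-coding genes of the GENCODE M21 annotation (mm10) whose symbol reads Col, a number, a and a number were taken, 42 of 20807 genes. The 5 fibroblast collagens, Col1a1, Col1a2, Col3a1, Col5a1 and Col6a1, were set beside the other 37 and beside genes of like length. For every gene a window was drawn over the gene body and 10 kb on each side. The macroH2A1.2-GFP regions of each sample that overlapped this window by at least 1 bp were collected, with the ChIP reads and the control reads deposited for them. The covered share is the percentage of a window's bases that lie in such regions.

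Fibroblasts secrete fibrillar collagens, mainly types I, III and V, which assemble into banded fibrils, together with the beaded filaments of type VI collagen. Preadipocytes are fibroblast-like, and during adipogenesis the fibrillar matrix is remodelled while basement membrane and type VI collagens surround the fat cell. MacroH2A1.2 is a histone variant with a large non-histone domain that is incorporated into nucleosomes, often over broad chromatin domains, and is best known for its association with silent chromatin.

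The study followed macroH2A1.2 on chromatin of 3T3-L1 cells, mouse fibroblasts that turn into adipocytes when induced, before and after differentiation. All cells analysed here carried a lentivirus expressing macroH2A1.2-GFP, so the regions describe an introduced, tagged histone pulled down with the anti-GFP antibody ab290, not the cells' own macroH2A1.2. Pre-adipocytes (2 replicates, called pre 1 and pre 2) were cells before differentiation. Mature adipocytes (2 replicates, mature 1 and mature 2) had been induced 2 days after confluence. The labels give 60 h of a cocktail of insulin at 10 µg/ml, dexamethasone at 0.25 µM and the phosphodiesterase inhibitor IBMX at 500 µM, and no day of harvest. A single library made without antibody served as control for all 4 samples and has no regions of its own in the files used here. Which sample belongs to which condition rests on the titles, because the descriptions of mature 1 and mature 2 name the undifferentiated state. The regions contain no expression values, so no adipocyte or fibroblast marker could be checked, and the paragraph of the methods on immunoprecipitation speaks of mouse adipose tissue.

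Pre 1 and pre 2 held 36468 and 38546 regions, and mature 1 and mature 2 held 59375 and 61196. Pre 2 was the shallowest, with a library 0.549 times the size of the control library against 1.2 to 1.23 in the other samples, and a median of 57 ChIP reads per region against 121 to 186. Only regions with a false discovery rate (FDR) of at most 0.001 were deposited, so a bare stretch means no region at that limit. With 2 samples against 2, an exact permutation test cannot give a two-sided p under 0.33, so that test could not pass 0.05 for the covered share of any single gene.

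Collagen windows carried macroH2A1.2-GFP more often than genes of their length. A region was found in at least 1 sample in 37 of the 42 collagen windows, where 53.7% of all autosomal protein-coding genes had one. Collagen genes are long, and long windows meet regions more often. For each collagen the share of genes within 20% of its length, other than collagens, was therefore added up, which gave 28.1 windows in place of 37. In both pre-adipocyte replicates 24 collagens had a region, against 14.6 from genes of like length and 24.2% of all genes. In both mature replicates it was 31, against 19.5 and 34.4%. A region in all 4 samples was present at 23 collagens, against 13.1 and 21.1%. These counts are descriptions of the 42 genes and carry no test.

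Windows with a region in a single condition were few. Col9a2, Col11a1 and Col27a1 had regions in both mature replicates and in no pre-adipocyte replicate, 3 genes against 2.45 from genes of like length and 4.86% of all genes. At Col27a1 the region of mature 1 reached only 397 bp into the window, 0.282% of it, and the gene body was bare in all samples. Col11a1 and Col27a1 encode minor fibrillar chains and Col9a2 a chain that decorates cartilage fibrils. The reverse pattern, regions in both pre-adipocyte and in no mature replicate, was seen at 0 collagens, and 0.913% of all genes showed it. No region lay in the window of Col4a2, Col7a1, Col9a1, Col10a1 or Col25a1 in any sample. These genes encode, in the same order, a basement membrane chain, the anchoring fibril of skin, a chain of cartilage fibril surfaces, the network collagen of hypertrophic cartilage and a transmembrane collagen. Col25a1 was the longest collagen gene at 468377 bp, and 31.3% of genes of its length likewise had no region in the gene body in any sample.

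**Figure D1:**
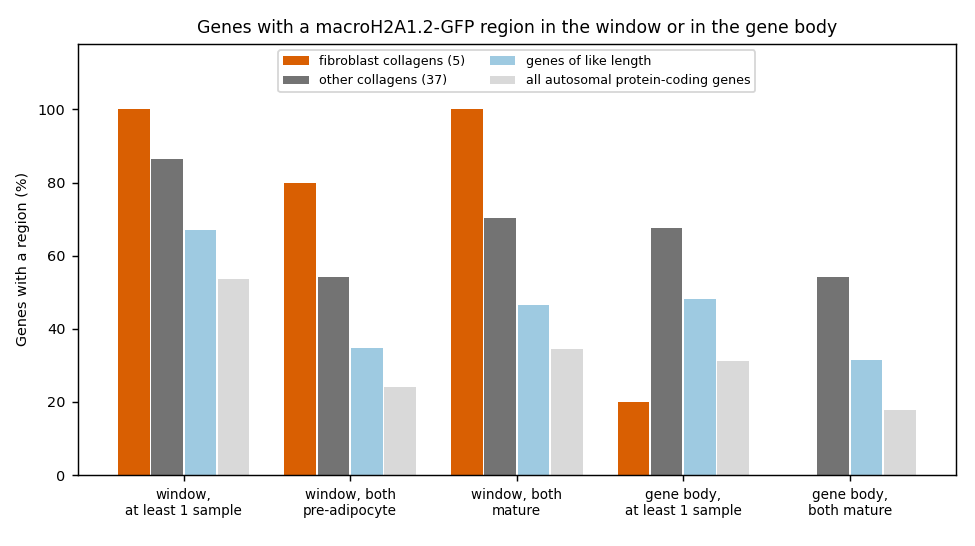
Percentage of genes (vertical axis) with a region in the window or in the gene body, for the 5 fibroblast collagens, the 37 other collagens, genes of like length and all 20807 genes. The bars of like length are matched to all 42 collagens. For gene bodies in both mature replicates they stand at 31.4%, where genes of the lengths of the 5 gave 21.4%. The fibroblast collagens stood at 100% for windows in both mature replicates and at 0% for gene bodies in both mature replicates.

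By sample, a region was present at 28 collagens in pre 1, 27 in pre 2, 32 in mature 1 and 35 in mature 2. Genes of like length gave 19.1, 17.8, 22.7 and 22.9 in the same order. Of all genes, 35.0%, 30.3%, 41.4% and 41.6% had a region, so the share was higher in the mature samples there too. The median covered share over the 42 windows was 9.14% in pre 1, 4.29% in pre 2, 7.19% in mature 1 and 7.56% in mature 2. The pre-adipocyte replicates thus lay further apart than the means of the conditions, which differed by 0.663 percentage points. Over all genes the median covered share was 0% in every sample. The collagen windows held 119, 129, 221 and 227 regions in the same order, with a median fold enrichment over control of 1.70, 2.12, 1.92 and 1.90. Over all regions it was 1.61, 2.01, 1.79 and 1.82. Each region was counted once, and 1 region was shared by neighbouring collagens in each sample but mature 1.

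**Figure D2:**
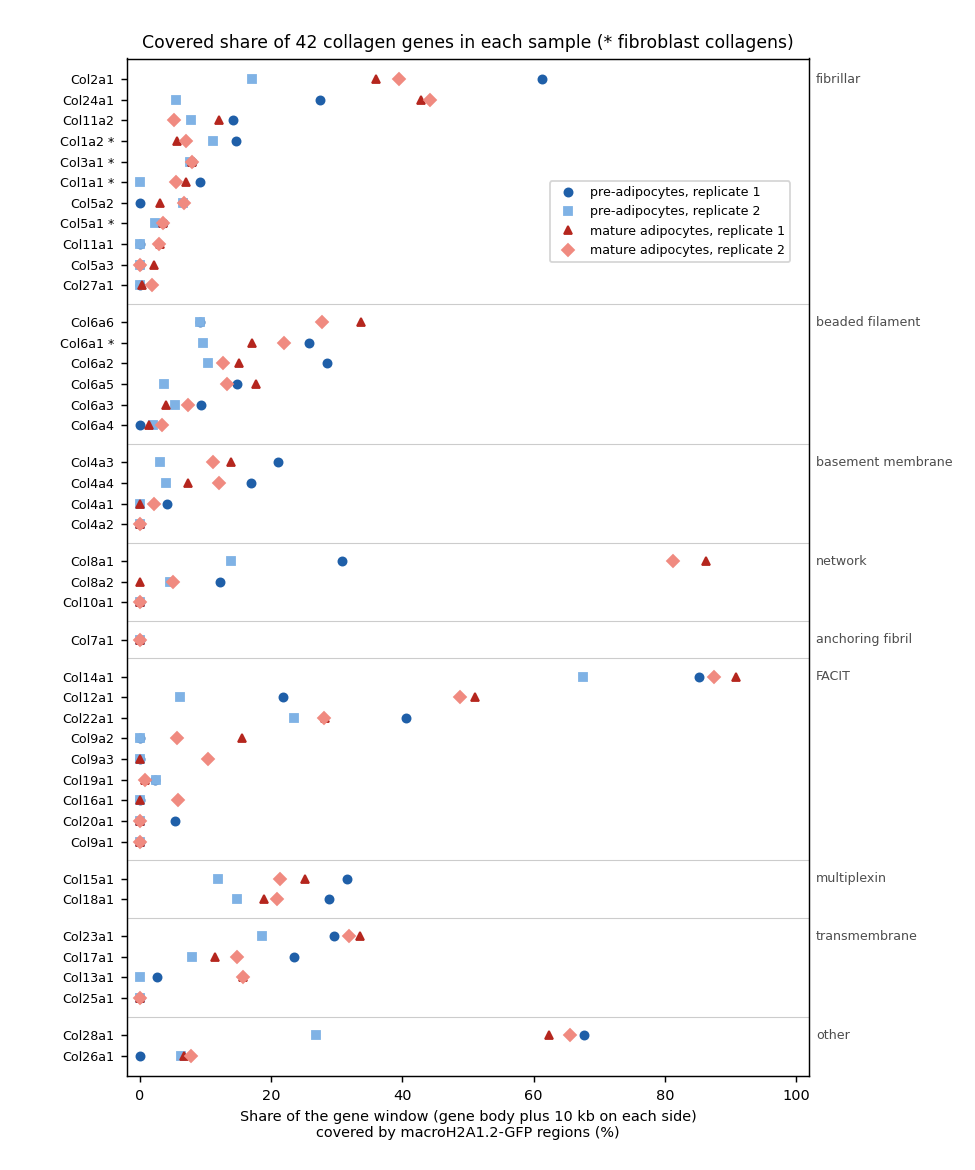
Covered share of the window (horizontal axis, %) of each of the 42 collagen genes (rows, grouped by class), with 1 point per sample and fibroblast collagens starred. Most windows lay below 40%, while Col14a1 reached 67.6% to 90.8% and the mature samples of Col8a1 stood apart from its pre-adipocyte samples.

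The 5 fibroblast collagens had regions beside their gene bodies and almost none inside them. All 5 had a region in the window in both mature replicates, and 4 in both pre-adipocyte replicates. Inside the gene body a region was found at 1 of 5 in any sample, against 25 of the 37 other collagens and 31.1% of all genes. In both mature replicates the body was touched at 0 of the 5 and at 20 of the 37, where 17.8% of all genes had such a region. Most of these 5 genes are short, and genes of their lengths gave 1.82 and 1.07 of 5 for the same counts, so the count of 1 lay close to what length alone gives. Regions in the flanks alone were the pattern of 4 of the 5 and of 7 of the 37, with 1.14 and 6.70 from genes of like length and 22.5% of all genes.

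Col1a1 (ENSMUSG00000001506.10, chromosome 11 from 94936224 to 94953042, forward strand) encodes the alpha 1 chain of type I collagen, the main fibrillar collagen of fibroblasts. Its covered share was 9.17% in pre 1, 0% in pre 2, 7.06% in mature 1 and 5.43% in mature 2. The samples overlapped between conditions. The region of pre-adipocytes lay upstream, from 94922001 to 94929600, with 242 ChIP and 138 control reads (fold enrichment over control 1.46). Those of mature adipocytes lay downstream, starting at 94957001 in replicate 1 (91 ChIP and 44 control reads, fold 1.69) and at 94957401 in replicate 2 (75 and 35 reads, fold 1.78). Upstream regions in the other samples ended just outside the window, 10.2 kb before the 5′ end in pre 2 and 10.4 kb in mature 1 and mature 2. The gene body itself was bare in all samples, as it was in 73.4% of genes of its length.

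Col1a2 (ENSMUSG00000029661.16, chromosome 6 from 4504814 to 4541544, forward strand) encodes the partner alpha 2 chain of type I collagen. Its covered share was 14.7% in pre 1, 11.2% in pre 2, 5.62% in mature 1 and 7.05% in mature 2. Both pre-adipocyte samples were above both mature samples, and the mean of mature adipocytes minus that of pre-adipocytes was -6.61 percentage points. The regions behind these shares were not the same stretch. Both pre-adipocyte replicates had a downstream region, from 4546201 to 4554200 (343 ChIP and 215 control reads, fold 1.33) in replicate 1 and from 4545201 to 4551600 (122 and 154 reads, fold 1.44) in replicate 2. Pre 1 also had an upstream region from 4498201 to 4501200 (130 and 80 reads, fold 1.35). Mature 1 had one from 4482001 to 4498000 at a fold of only 1.14 (663 and 474 reads). Mature 2 had the single region found in the body of any fibroblast collagen, from 4526001 to 4530000, with 155 ChIP and 95 control reads (fold 1.35). That region covered 10.9% of the body. Over the body alone the difference therefore turned round, to 5.44 percentage points higher in mature adipocytes.

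Col3a1 (ENSMUSG00000026043.18, chromosome 1 from 45311538 to 45349706, forward strand) encodes type III collagen, which forms thin fibrils together with type I. Its window varied least of the 5, with covered shares of 8.02% in pre 1, 7.67% in pre 2 and 8.02% in both mature replicates. All of it came from the end of an upstream region that stopped at 45306200, or at 45306000 in pre 2, 5.34 to 5.54 kb before the 5′ end. The tables place regions in steps of 200 bp, so the stops differed by a single step. Upstream of the stop the regions were of unequal length, 19800 bp in pre 1, 5200 bp in pre 2 and 53200 bp in both mature replicates. They held 973, 152, 2421 and 2618 ChIP reads against 628, 175, 1562 and 1562 control reads, for a fold of 1.29, 1.58, 1.26 and 1.39. Downstream of the stop no region followed for 196 to 310 kb, a stretch that held the whole of Col3a1 and nearly all of its neighbour Col5a2, which partners Col5a1 in type V collagen. The 500 kb on each side of the Col3a1 window were covered to 27.9% to 45.1%.

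Col5a1 (ENSMUSG00000026837.15, chromosome 2 from 27886425 to 28039514, forward strand) encodes the main chain of type V collagen, which starts fibrils and limits their width. Its covered share was 3.57% in pre 1, 2.31% in pre 2 and 3.45% in both mature replicates. As at Col3a1, an upstream region ended at nearly the same base in all samples, 3.83 to 4.23 kb before the 5′ end. Its fold enrichment was 1.88 in pre 1, 1.84 in pre 2, 1.86 in mature 1 and 1.98 in mature 2, on 352, 94, 407 and 329 ChIP reads. No region lay in the 153090 bp of the gene body in any sample, while 41.3% of genes of its length had a bare body. The whole stretch without a region ran for 179 to 212 kb.

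Col6a1 (ENSMUSG00000001119.7, chromosome 10 from 76708792 to 76726168, reverse strand) encodes a chain of the beaded filaments of type VI collagen. Its mean covered share of 18.6% was the highest of the 5. The samples stood at 25.7% in pre 1, 9.63% in pre 2, 17.1% in mature 1 and 22.0% in mature 2, so the conditions overlapped. A region 20.2 to 21.4 kb past the 5′ end, beyond the 3′ end, was present in all samples with a fold of 1.65, 1.78, 1.55 and 1.46. Pre 1 also had a region from 76726201 to 76729800 that stopped 33 bp before the 5′ end, with 119 ChIP and 72 control reads (fold 1.38). Its partner chains Col6a2 and Col6a3 had bare bodies in all samples as well.

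**Figure D3:**
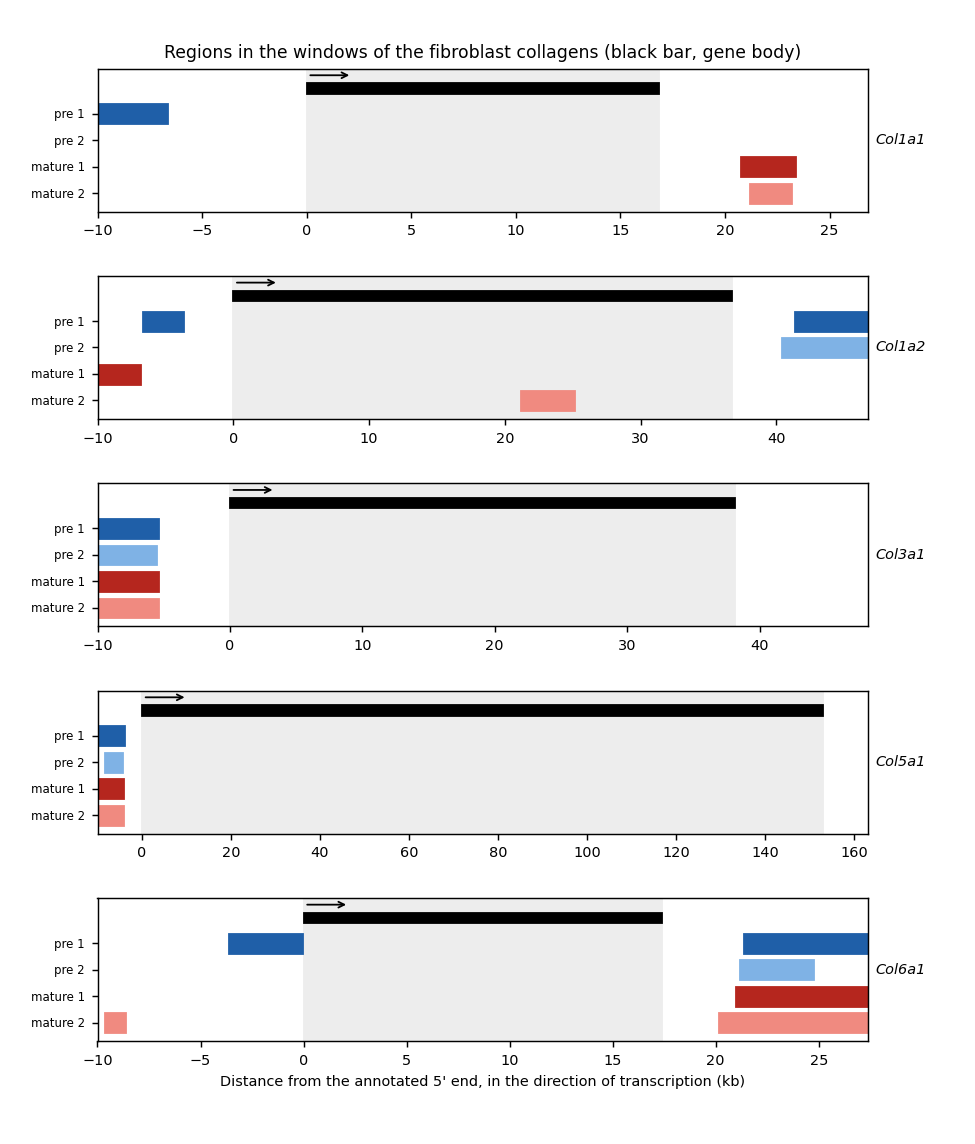
Position of the regions in the windows of Col1a1, Col1a2, Col3a1, Col5a1 and Col6a1 as distance from the annotated 5′ end in kb (horizontal axis), with 1 row per sample and the gene body as a black bar. The bodies were free of regions apart from 1 region of Col1a2 in mature 2.

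The nearly bare bodies of the fibroblast collagens lay in covered surroundings. The gene body was less covered than the 500 kb on each side of the window in all 4 samples at all 5 fibroblast collagens, at 18 of the other 37 and at 64.7% of all genes, and genes of like length gave 3.35 of 5. A body at 0% is below any covered surroundings, so the count of 5 follows largely from the bare bodies. The surroundings themselves were not compared with those of genes of like length. The opposite, a body more covered than its surroundings in all 4 samples, was seen at 0 of the 5 and at 10 of the 37, Col2a1, Col6a5, Col6a6, Col14a1, Col15a1, Col18a1, Col22a1, Col23a1, Col24a1 and Col28a1. Genes of the lengths of the 37 gave 3.72, and 5.31% of all genes had this pattern. The surroundings of Col3a1 and Col1a2 were among the more covered ones, with 43.2% and 48.4% in mature 1.

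**Figure D4:**
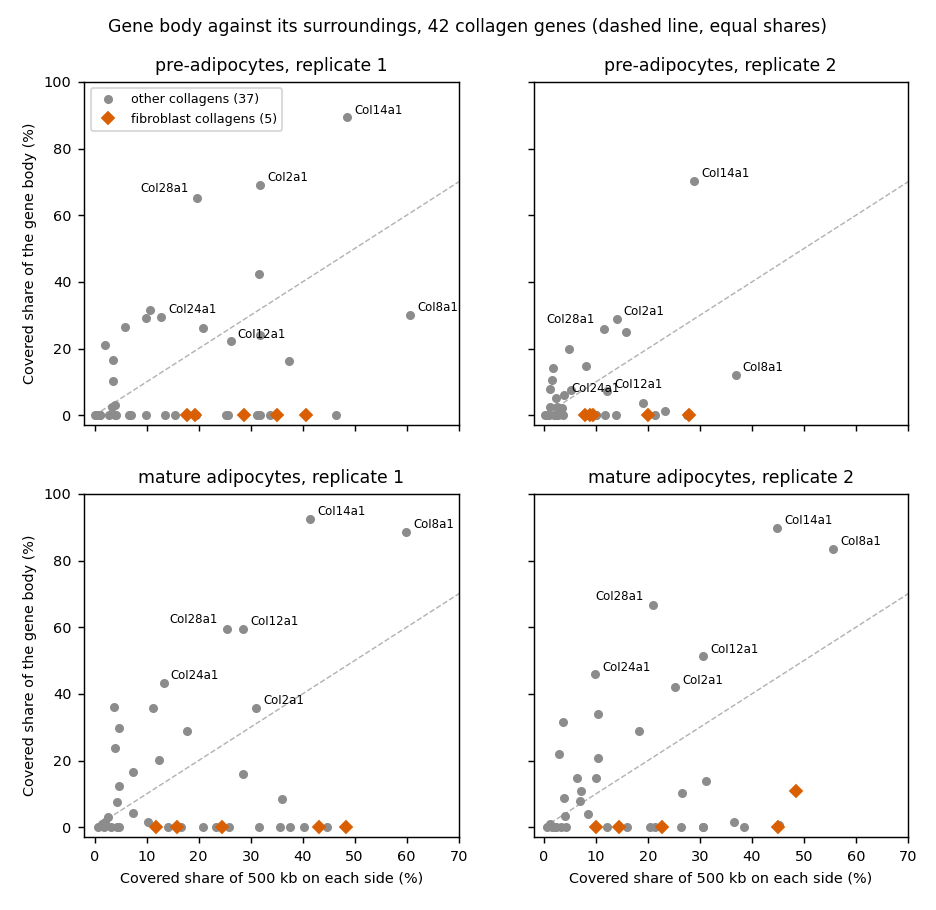
Covered share of the gene body (vertical axis, %) against that of the 500 kb on each side of the window (horizontal axis, %), with 1 panel per sample and 1 point per collagen gene. The fibroblast collagens lay on the floor of each panel, with a body share of 0% apart from Col1a2 at 10.9% in mature 2, while Col14a1 lay far above the line of equal shares.

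Over the whole window the fibroblast and the other collagens had close medians in pre 1 and both mature samples, while in pre 2 the fibroblast median was higher. These shares include the flanks, which held nearly all the cover of the fibroblast collagens. The median covered share of the 5 was 9.17% in pre 1, 7.67% in pre 2, 7.06% in mature 1 and 7.05% in mature 2, and that of the 37 was 9.10%, 3.94%, 7.32% and 7.80% in the same order. The spread was wider among the 37, which reached 90.8%, while no fibroblast collagen exceeded 25.7%.

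Promoters of these genes, 250 bases before to 50 after the RefSeq start, are shown for Col1a2, Col3a1, Col5a1 and Col6a1 because most regions near them stopped short of them, and were taken from RefSeq on GRCm38.p6, the assembly of the mm10 coordinates. Capitals mark the letters TATAAA of a TATA box, the letters CCAAT of the box of that name and the letters GGGCGG of a GC box, each read on either strand, and the 3 motifs do not overlap one another in these sequences. The Col1a2 promoter (chr6:4505368-4505667, forward strand) starts from a RefSeq transcript 804 bp away from the GENCODE 5′ end, and that of Col6a1 (chr10:76725995-76726294, reverse strand) from one 124 bp away. Col3a1 (chr1:45311288-45311587) and Col5a1 (chr2:27886175-27886474), both on the forward strand, share their start with GENCODE. No region covered a base of the Col1a2, Col3a1 or Col5a1 promoter in any sample, and 94 bases of the Col6a1 promoter lay in a region of pre 1.
Col1a2: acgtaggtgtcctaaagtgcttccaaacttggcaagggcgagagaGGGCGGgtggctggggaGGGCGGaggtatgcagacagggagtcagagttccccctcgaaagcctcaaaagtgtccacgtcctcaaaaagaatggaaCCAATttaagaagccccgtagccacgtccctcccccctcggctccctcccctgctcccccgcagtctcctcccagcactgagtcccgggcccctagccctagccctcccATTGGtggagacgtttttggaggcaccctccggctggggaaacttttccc
Col3a1: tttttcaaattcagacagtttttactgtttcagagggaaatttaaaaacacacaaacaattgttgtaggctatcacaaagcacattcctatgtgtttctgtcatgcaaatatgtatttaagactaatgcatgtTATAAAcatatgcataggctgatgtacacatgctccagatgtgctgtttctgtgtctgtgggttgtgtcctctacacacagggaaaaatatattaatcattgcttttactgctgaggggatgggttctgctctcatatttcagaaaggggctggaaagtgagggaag
Col5a1: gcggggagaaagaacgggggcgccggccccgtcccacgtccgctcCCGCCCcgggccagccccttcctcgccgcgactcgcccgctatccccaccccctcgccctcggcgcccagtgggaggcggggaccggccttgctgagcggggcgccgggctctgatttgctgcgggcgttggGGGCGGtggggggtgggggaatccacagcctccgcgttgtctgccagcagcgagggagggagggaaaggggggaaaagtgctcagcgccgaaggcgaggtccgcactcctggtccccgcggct
Col6a1: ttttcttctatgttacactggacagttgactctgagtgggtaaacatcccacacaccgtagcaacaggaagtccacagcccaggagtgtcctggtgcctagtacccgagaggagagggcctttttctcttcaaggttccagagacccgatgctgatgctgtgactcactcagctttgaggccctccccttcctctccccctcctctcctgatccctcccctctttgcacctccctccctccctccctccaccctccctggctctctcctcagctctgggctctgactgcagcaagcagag
The sequences differ in make-up, since Col5a1 has 34 CpG dinucleotides and 75% G and C, Col1a2 13 and 61%, Col6a1 3 and 57.3%, and Col3a1 0 and 37.7%. The 3 of these promoters with no covered base thus included the CpG-richest and the one without a CpG.

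Promoter sequences were matched for 33 of the 42 collagens, of which 11 overlapped a region in at least 1 sample. Some of these overlaps were partial, down to 21 bp at Col6a3. The same share was not computed over all promoters, so whether 11 is many cannot be said. TATAAA was present in 5 of the 33, CCAAT in 11 and GGGCGG in 20, where 13.6%, 37.3% and 36% of the 31396 autosomal promoters of this length held them. The median collagen promoter had 60% G and C and 12 CpG dinucleotides, against 53% and 7 over all promoters. A match to these letters describes the sequence and is not a binding site.

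The annotated 5′ end lay inside a region in at least 1 sample at 10 collagens, none of them a fibroblast collagen, where genes of like length gave 5.15 and 11.7% of all genes had one. They were Col2a1, Col15a1, Col17a1 and Col18a1 in pre 1, Col6a4 in pre 2, Col6a6 and Col14a1 in mature 1, Col5a2 in mature 2, and Col8a1 and Col28a1 in 1 sample of each condition. At 0 collagens was the 5′ end covered in both pre-adipocyte or both mature replicates, where genes of like length gave 1.66 and 3.49% of all genes showed it.

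None of the most covered collagens belonged to the fibroblast set. The highest mean covered share over the 4 samples belonged to Col14a1, followed by Col28a1, Col8a1, Col2a1 and Col12a1, with means of 82.8%, 55.6%, 53.0%, 38.5% and 31.9%. Col14a1 and Col12a1 encode FACIT collagens, which bind to the surface of fibrils. Col8a1 encodes a short network-forming collagen of vessel walls and the cornea, Col2a1 the fibrillar collagen of cartilage, and Col28a1 a collagen with von Willebrand factor A domains.

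Col14a1 (ENSMUSG00000022371.16, chromosome 15 from 55307750 to 55520803, forward strand) was covered to 85.2% in pre 1, 67.6% in pre 2, 90.8% in mature 1 and 87.5% in mature 2. Both mature samples were above both pre-adipocyte samples, by 12.8 percentage points between the means. The difference was 3.93 without pre 2, 21.6 without pre 1 and 38.3 when only regions overlapping the other replicate by 50% were kept. Each of these shares was above that of at least 99.4% of genes of like length. The regions of the window held 8459, 3564, 9909 and 9618 ChIP reads against 3874, 3239, 4196 and 4086 control reads, in the same order, for an enrichment of 1.82, 2.01, 1.92 and 1.95 after scaling for library size. In pre 2 the cover was broken into 29 regions of at most 18600 bp, against 9 regions of up to 61200 bp in pre 1, 11 of up to 78600 bp in mature 1 and 13 of up to 53200 bp in mature 2. The 500 kb on each side were covered to 28.9% to 48.6%.

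Col28a1 (ENSMUSG00000068794.7, chromosome 6 from 7997808 to 8192617, reverse strand) was covered to 67.7% in pre 1, 26.8% in pre 2, 62.3% in mature 1 and 65.5% in mature 2, with overlap between the conditions. Col2a1 (ENSMUSG00000022483.17, chromosome 15 from 97975602 to 98004695, reverse strand) had 61.3% and 17.1% in pre-adipocytes and 36.0% and 39.5% in mature adipocytes, in the same order of replicates, and also overlapped. At both genes the pre-adipocyte replicates lay on both sides of the mature samples, so the spread within pre-adipocytes exceeded the difference between conditions.

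The promoters of Col8a1 (chr16:57754688-57754987, GRCm38.p6, reverse strand) and Col28a1 (chr6:8192568-8192867, reverse strand) are shown because whole collagen promoters lay in a region in samples of both conditions there, with the same motifs in capitals. All 300 bases were covered in mature 1 at both genes, and in pre 2 at Col8a1 and pre 1 at Col28a1.
Col8a1: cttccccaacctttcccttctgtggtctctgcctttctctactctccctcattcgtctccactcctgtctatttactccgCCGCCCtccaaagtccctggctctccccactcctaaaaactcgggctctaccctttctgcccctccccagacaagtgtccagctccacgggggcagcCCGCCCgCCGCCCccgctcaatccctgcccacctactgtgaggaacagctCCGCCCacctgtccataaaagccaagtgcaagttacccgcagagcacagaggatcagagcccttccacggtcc
Col28a1: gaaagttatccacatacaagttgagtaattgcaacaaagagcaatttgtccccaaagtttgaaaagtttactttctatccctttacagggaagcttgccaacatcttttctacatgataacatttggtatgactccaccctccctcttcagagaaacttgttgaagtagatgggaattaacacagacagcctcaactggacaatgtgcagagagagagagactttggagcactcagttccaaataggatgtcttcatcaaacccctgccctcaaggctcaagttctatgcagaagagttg
The Col8a1 sequence has 12 CpG dinucleotides and 60.3% G and C and holds the GC box letters, and that of Col28a1 has 0 and 41.7% and none of the 3 motifs.

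Between conditions, the covered share was higher in both mature than in both pre-adipocyte replicates at 11 collagens, where genes of like length gave 8.80 and 14.6% of all genes had this order. They were Col6a6, Col8a1, Col9a2, Col11a1, Col12a1, Col13a1, Col14a1, Col23a1, Col24a1, Col26a1 and Col27a1, and none was a fibroblast collagen. The reverse order was found at Col1a2 and Col19a1, 2 genes against 1.89 and 3.51% of all genes. These counts are near those of genes of like length. They also moved with either pre-adipocyte replicate. Without pre 1, 25 collagens were higher in both mature samples and 2 lower. The shares of all genes were not computed for that setting, so 25 has no background beside it. Without the shallow pre 2, 13 collagens were higher in both mature samples than in pre 1 (16.2% of all genes). In that setting 19 were lower in both (18.1%). Leaving out a sample loosens the rule, so the counts can only stay or rise and the genes found before must recur.

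Col8a1 (ENSMUSG00000068196.5, chromosome 16 from 57624258 to 57754737, reverse strand) had the widest gap between conditions. Its covered share was 30.8% in pre 1, 13.9% in pre 2, 86.2% in mature 1 and 81.3% in mature 2, a difference of 61.4 percentage points between the means. The SD between replicates was 11.9 points in pre-adipocytes and 3.50 in mature adipocytes (n = 2 each), and the exact permutation test gave the smallest p it can give, 0.33. The window held 5 and 3 regions in pre-adipocytes and 11 and 17 in mature adipocytes. Their ChIP reads were 1847 and 529 in pre-adipocytes and 5946 and 5797 in mature adipocytes, against 1233 and 654, and 3397 and 3348, control reads. The enrichment over control in these regions was modest in every sample, 1.25 and 1.47 in pre-adipocytes and 1.43 and 1.44 in mature adipocytes. The flanking 500 kb on each side did not show the same order, with 60.7% and 36.9% covered in pre-adipocytes and 59.8% and 55.7% in mature adipocytes. When only regions with a fold of at least 2 were kept, the difference at Col8a1 was -0.598 points, so the wider cover in mature adipocytes lay in regions under that fold.

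Col12a1 (ENSMUSG00000032332.17, chromosome 9 from 79598991 to 79718831, reverse strand) was covered to 21.7% in pre 1, 6.15% in pre 2, 51.1% in mature 1 and 48.8% in mature 2. The difference was 36.0 percentage points, and -0.858 with a fold of at least 2. Its regions had an enrichment of 1.30 and 1.92 in pre-adipocytes and 1.46 and 1.47 in mature adipocytes. Col24a1 (ENSMUSG00000028197.4, chromosome 3 from 145292472 to 145552011, forward strand), a minor fibrillar chain, had 27.4% and 5.51% in pre-adipocytes and 42.8% and 44.3% in mature adipocytes, a difference of 27.1 points, which was 16.1 without pre 2 and 5.44 with a fold of at least 2. Here the cover was made of many short regions, 11 and 7 in pre-adipocytes and 35 and 29 in mature adipocytes.

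Col6a6 (ENSMUSG00000043719.14, chromosome 9 from 105687809 to 105828160, reverse strand) encodes a chain related to Col6a3. It was covered to 9.10% in pre 1, 9.23% in pre 2, 33.7% in mature 1 and 27.7% in mature 2. Its regions were also more strongly enriched than those of Col8a1, at 2.07 and 2.30 in pre-adipocytes and 2.56 and 2.52 in mature adipocytes. Col13a1 (ENSMUSG00000058806.14, chromosome 10 from 61838236 to 61979108, reverse strand), a transmembrane collagen of cell contacts, had 2.61% and 0% in pre-adipocytes and 15.7% and 15.8% in mature adipocytes. The mature regions of Col13a1 had an enrichment of 2.52 and 2.85. Col19a1 (ENSMUSG00000026141.13, chromosome 1 from 24261890 to 24587472, reverse strand), a FACIT collagen, went the other way at a low level, with 2.26% and 2.43% in pre-adipocytes and 0.810% in both mature samples.

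**Figure D5:**
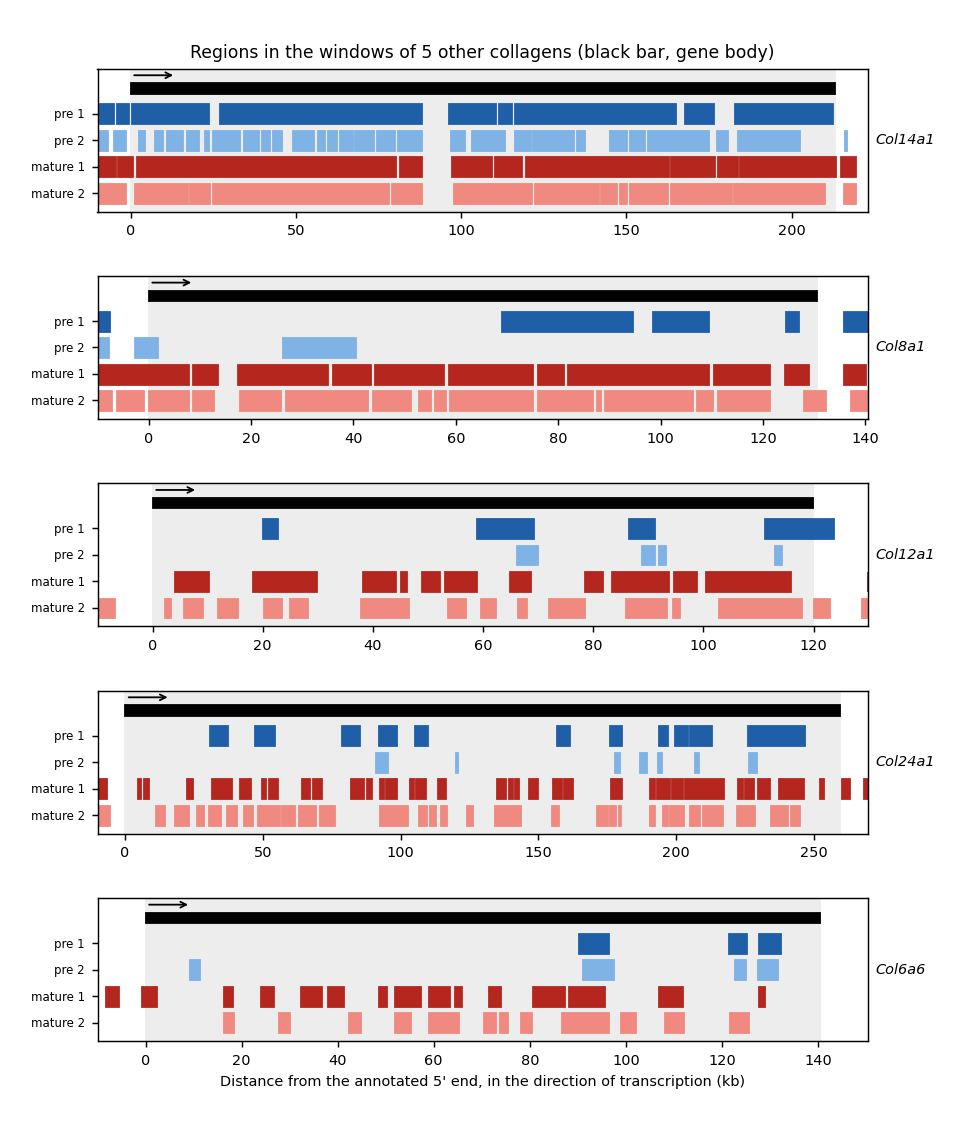
Position of the regions in the windows of Col14a1, Col8a1, Col12a1, Col24a1 and Col6a6 as distance from the annotated 5′ end in kb (horizontal axis), with 1 row per sample and the gene body as a black bar. Col14a1 was filled in every sample, and the other 4 had more cover in the 2 mature samples.

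Read density inside the regions could be tested where a merged region had been called in all 4 samples. Of 12857 such regions, 46 overlapped the windows of 21 collagens by at least 1 bp. Reads were summed over the called regions of each sample inside the merged region, which could reach past the window. Some counts thus came mostly from outside the window, and the samples were not counted over the same stretch. In the quasi-likelihood test of edgeR, run on ChIP counts and adjusted over all 12857 regions, 0 of the 46 passed an adjusted p of 0.05, while 11 of all regions (0.0856%) did. DESeq2 gave 0 of the 46 as well. At an unadjusted p under 0.05 there were 3 of the 46 and 1176 of all regions, or 9.15%. The log2 fold change of mature adipocytes over pre-adipocytes lay between -0.32 and 0.28, with a median of 0.00 and 24 of the 46 above 0. The highest was at Col24a1. The lowest was in a region at the edge of the Col13a1 window (61819401 to 61828800), which only the called region of mature 2 reached. Density was taken within the called intervals of each sample, which narrows the range beforehand, and stretches not called in all 4 samples, such as most of Col8a1, were outside this test.

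The 3 of these 46 regions with an unadjusted p under 0.05 were all lower in mature adipocytes. At Col28a1, chromosome 6 from 8060201 to 8083600, ChIP reads numbered 795 and 166 in pre-adipocytes and 906 and 788 in mature adipocytes, and per kb of called interval and unit of library size 35.9 and 40.9, and 32.4 and 31.7. The log2 fold change in density was -0.27 (SE 0.0807, adjusted p = 0.191, edgeR). For the region downstream of Col6a1 (76693801 to 76706000) it was -0.28 (SE 0.107, adjusted p = 0.384, edgeR). For the one upstream of Col1a2 (4418201 to 4498000) it was -0.15 (SE 0.0621, adjusted p = 0.438, edgeR). That upstream region spanned 79.8 kb, and only the called region of mature 1 reached the Col1a2 window. Leaving out the shallow pre 2, whose densities were the highest of the 4 samples in all 3 regions, brought 2 of them past the threshold, as 224 of all regions (1.74%) then were. The log2 fold changes were then -0.21 (SE 0.0419) in the region upstream of Col1a2 and -0.31 (SE 0.0806) at Col28a1. That fit assumes the single remaining pre-adipocyte sample to vary as the mature pair does. The 2 regions that filled Col14a1, from 55286601 to 55396000 and from 55404201 to 55521200, had log2 fold changes of 0.04 each (SE 0.0585 and 0.0596, adjusted p = 0.891 for both, edgeR). The upstream region of Col1a1, merged from 94921401 to 94929600, had a log2 fold change of 0.25 (SE 0.155, adjusted p = 0.656, edgeR). The upstream region of Col3a1 stood at -0.04 (SE 0.0627, adjusted p = 0.895, edgeR) and that of Col5a1 at -0.10 (SE 0.0814, adjusted p = 0.760, edgeR).

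By class, the fibrillar collagens had a median covered share of 8.02% in pre 1, 5.51% in pre 2, 5.62% in mature 1 and 5.43% in mature 2, over 11 genes of which 5 had a bare body in all samples. The 6 beaded filament genes had 12.1% and 7.27%, and 16.1% and 13.0%, in the same order, with 3 bare bodies. Basement membrane collagens (4 genes, Col4a1 to Col4a4) had 10.5% and 1.55%, and 3.66% and 6.65%. The head-to-head partners Col4a3 and Col4a4 were both covered in every sample, to between 3.09% and 21.0%, while of the other such pair Col4a1 stayed at or below 4.15% and Col4a2 at 0%. The 9 FACIT genes held both extremes, Col14a1 at the top and Col9a1 at 0%, and their median was 2.26% and 0%, and 0.810% and 5.88%. The multiplexins Col15a1 and Col18a1, basement membrane proteoglycans whose ends release anti-angiogenic fragments, had a median of 30.2% and 13.3%, and 22.0% and 21.1%. Transmembrane collagens (4 genes) stood at 13.0% and 3.95%, and 13.5% and 15.3%. Taking the mean of each condition, 24 collagens were higher in mature adipocytes, 13 in pre-adipocytes, and 5 were at 0% throughout. At some of the 24, among them Col4a3 and Col15a1, the mature mean was below pre 1, so their order rested on the shallow pre 2. These counts were not compared with all genes or with genes of like length.

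The machinery that modifies, cuts, crosslinks, binds and degrades collagen was read from a list of 45 genes, all of them found in the annotation. A window region was present in at least 1 sample at 29 (53.7% of all genes), in both pre-adipocyte replicates at 20 (24.2%), in both mature replicates at 22 (34.4%) and in all 4 samples at 19 (21.1%). The covered share was higher in both mature replicates at 5 (14.6% of all genes) and in both pre-adipocyte replicates at 2 (3.51%). At 3 a region lay over the 5′ end in both pre-adipocyte or both mature replicates (3.49%). These counts were not compared with genes of like length. The highest mean shares belonged to P3h2, a collagen prolyl 3-hydroxylase, and to the fibril-binding proteoglycans Lum and Dcn, which neighbour each other on chromosome 10. P3h2 was covered to 95.3% in pre 1, 74.5% in pre 2, 79.4% in mature 1 and 86.2% in mature 2. Lum had 83.3% and 67.4%, and 71.7% and 69.5%, and Dcn 85.7% and 33.5%, and 60.8% and 68.7%, in the same order. At all 3 the conditions overlapped.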

How the data were processed

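Chromatin of 3T3-L1 cells was immunoprecipitated from pre-adipocytes (2 replicates) and mature adipocytes (2 replicates), called biological duplicates by the study. The submitters' processing notes name bcl2fastq 2.16, Bowtie 1.1.2, Picard, SICER 1.1 and bedtools. Single reads were aligned by the authors to mm10, and enriched regions were called in each sample separately against the library without antibody. The deposited tables give for each region the count of ChIP reads and the count of control reads, neither scaled. They also give a p-value from the peak caller of the authors, its FDR, and the deposited fold enrichment, a ratio of the counts scaled by library size. The deposited p-value was not used. The library size relative to control was read from that scaling, and no coverage of stretches without a region was at hand, so depth is known only within regions.

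Here, windows, covered shares, like-length counts and enrichment (summed ChIP over summed control reads, divided by the library ratio) were computed with Python 3.11.15, numpy 2.4.6 and pandas 2.3.3. Read density was ChIP reads per kb divided by that ratio. Regions of the 4 samples were merged where they overlapped by 1 bp, and the counts of those called in all 4 samples were tested with edgeR 4.0.16 (TMM, log region length as offset, Benjamini-Hochberg) in R 4.3.3, with DESeq2 1.42.0 as an alternative. P-values measure the spread between these samples. The scripts were tested on simulated data. Alternatives covered the gene body alone, the FDR, the fold, the overlap between replicates, the least overlap with a window, the tolerance on length, other normalizations and filters, the replicate block, and leaving out each replicate. The genes and lists were chosen with earlier results of these data known. The split into body and flanks, the 500 kb surroundings and the stretches without a region were chosen after the values were seen.

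The genes named with all their values are the 5 fibroblast collagens, the 5 others with the highest mean covered share, up to 5 in each direction with the largest difference among those whose samples did not overlap between conditions, those with the 5′ end covered in both replicates of a condition or with a region past the edgeR test, and those with no region. For the list of collagen-modifying genes they are the 3 with the highest mean covered share. Other collagens are named in counts of few genes.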

Additional observations from a re-analysis of the deposited data

How the results depend on the processing

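Several values moved under the alternatives, and the cause of the changes was not tested. The shares of all genes were not computed under these settings, apart from the 2 given above without pre 2. The collagen counts below therefore have no background beside them and describe the collagens only. The limit of a fold of at least 2 weighed unequally on the samples. In the collagen windows 37 of 119 regions reached it in pre 1, 77 of 129 in pre 2, 94 of 221 in mature 1 and 95 of 227 in mature 2. With a fold of at least 2, 24 collagens had a region in at least 1 sample, 10 in both pre-adipocyte and 15 in both mature replicates, 0 fibroblast collagens had one in the body, 6 collagens were higher in both mature replicates, the excess of 9.88 over genes of like length became 5.76, and the differences reversed at Col8a1 (-0.598 points) and Col12a1 (-0.858), with 5.44 at Col24a1 and 0 at Col1a2. With an overlap of 50% between replicates, 15 collagens had a region in both pre-adipocyte replicates, 0 fibroblast and 16 other collagens had one in the body, 17 were higher and 4 lower in both mature replicates, and the differences fell at Col6a6 from 21.5 to 8.48 points, at Col13a1 from 14.4 to 6.03 and at Col24a1 from 27.1 to 11.8, while that at Col14a1 rose from 12.8 to 38.3 and Col1a2 went from -6.61 to -10.3. Over the gene body alone, 20 had a region in both mature replicates, 1 was higher in both pre-adipocyte replicates, the excess was 6.71, the median of the fibroblast minus that of the other collagens turned from 0.695 to -2.08 points, and Col1a2 reversed to 5.44. At an FDR of 1e-05, 0 fibroblast collagens had a region in the body and 1 collagen was higher in both pre-adipocyte replicates. Leaving out each replicate, the fibroblast collagens with a region in the body ranged from 0 (without replicate 2 of mature adipocytes) to 1, the collagens higher in both mature replicates from 13 to 25 (without replicate 1 of pre-adipocytes), and those higher in both pre-adipocyte replicates from 2 to 19 (without replicate 2 of pre-adipocytes). The counts of collagens higher in a condition cannot fall when a sample is left out. The median covered share of mature minus pre-adipocytes ranged from -1.76 to 3.09 points and that of fibroblast minus other collagens from -0.316 to 1.18, so neither direction was fixed. Over all regions, edgeR called 10 higher and 1 lower in mature adipocytes, from 1 to 98 and from 0 to 126 with a replicate left out, and 0 to 2 among collagen regions. The calls over all regions were 0 and 0 with the library size relative to control, 21 and 6 with at least 50 ChIP reads, 3 and 0 without the length offset, 1 and 0 with the control count as offset, and 6 and 0 with DESeq2, all with 0 at collagens. The replicate block gave 20 and 7, also with 0 at collagens. Deviations from the condition means correlated at 0.00775 between samples of the same number, so the numbers showed no pairing. With 2 samples per condition the value between the others, -0.00775, is its negative by construction and adds nothing. Replicate 2 of pre-adipocytes held the fewest reads, and absence there cannot be told apart from low depth.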
